A study of Bos taurus with 9 samples.

Results

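The microRNA (miRNA) miR-126 was measured in bovine rectal tissue as its 2 mature arms, bta-miR-126-3p and bta-miR-126-5p, which are cut from the opposite sides of 1 hairpin. These 2 rows were taken by name from the 515 miRNAs of the deposited table, and the ratio of the arms was formed in each of the 9 libraries. Each library came from 1 beef steer. For the 5 super-shedders (SS) the feces had held over 10000 colony-forming units of E. coli O157 in each g, and the 4 non-shedders (NS) were negative for it. RNA was isolated from whole rectal wall, 3 to 5 cm proximal to the anal junction, so that epithelium, muscle, lymphoid tissue and vessels were ground together. The super-shedders had been identified days before slaughter, and not all of them were above that level when the tissue was taken.

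In vertebrates, miR-126 is encoded within an intron of EGFL7, a gene of blood vessel endothelium, and the RefSeq gene table of the ARS-UCD2.0 assembly places bovine MIR126 within the span of EGFL7. Endothelial cells are its main known source, and platelets and blood-forming cells carry it as well. In mice and zebrafish the loss of miR-126 leaves vessels fragile. The 3p arm is known in humans and mice to repress SPRED1 and PIK3R2, which dampen signalling by vascular endothelial growth factor, and VCAM1, which binds leukocytes to the vessel wall. The 5p arm is known in mice to repress DLK1, an inhibitor of endothelial proliferation. No other miRNA of the table was fixed as an endothelial marker, and mRNA of these steers was not analysed here, so that the endothelial label could not be checked against a second marker.

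The libraries held 650726 to 6314556 reads, a 9.70-fold range, and the values, called CPM by the authors, are reads times 1 step per library. The columns summed to more than true CPM would, by 8.94% in NS steer 242 and by 2.49% to 3.54% in the other libraries, and the cause was not tested. The SS libraries were mostly the deeper ones, and bta-miR-143, a smooth muscle miRNA, took 22.1% to 73.1% of a library. Both arms were present in all 9 libraries. With at least 654 reads for the 3p arm and 2569 reads for the 5p arm, counting error was small. The upper end of the 95% Clopper-Pearson interval lay at most 7.96% above the value for bta-miR-126-3p and 3.94% above it for bta-miR-126-5p.

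The 5p arm was the more abundant arm in every library. In NS, bta-miR-126-5p was at 3948 CPM in steer 108, 4847 CPM in steer 152, 3914 CPM in steer 165 and 10516 CPM in steer 242. In SS, it was at 5725 CPM in steer 274, 4827 CPM in steer 287, 6710 CPM in steer 294, 3368 CPM in steer 299 and 2868 CPM in steer 310. NS steer 242 was above all other libraries, and the remaining NS libraries lay inside the range of SS. It took 0.287% to 1.05% of a library and was the 14th to 29th most abundant row of the table.

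The 3p arm, the arm best known for its role in vessels, was several times lower. In NS, bta-miR-126-3p was at 1005 CPM in steer 108, 1118 CPM in steer 152, 842 CPM in steer 165 and 3578 CPM in steer 242. In SS, it was at 1388 CPM in steer 274, 923 CPM in steer 287, 1569 CPM in steer 294, 542 CPM in steer 299 and 443 CPM in steer 310. NS steer 242 again stood above every other library, and SS steers 299 and 310 were the lowest. The 3p arm ranked 38th to 60th in a library.

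**Figure D1:**
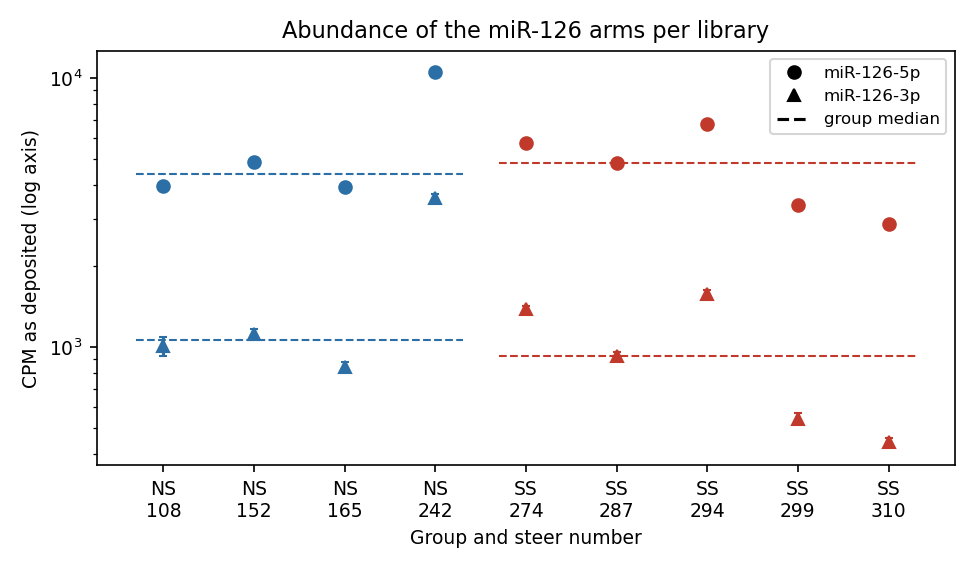
Abundance of bta-miR-126-5p (circles) and bta-miR-126-3p (triangles) in each NS (blue) and SS (red) library, in CPM on a log axis, with 95% Clopper-Pearson counting intervals and the group medians as dashed lines. The 5p arm lies above the 3p arm in all 9 libraries, and NS steer 242 is the highest for both arms.

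The libraries stood in nearly the same order for both arms. From low to high, the 3p arm gave SS 310, SS 299, NS 165, SS 287, NS 108, NS 152, SS 274, SS 294 and NS 242. In the order of the 5p arm only SS 287 and NS 108 changed places. By their counting intervals, NS 108 could not be told apart from SS 287 or from NS 152 for the 3p arm. For the 5p arm the same held for NS 165 with NS 108 and for SS 287 with NS 152. The 3p arm spanned an 8.07-fold range from lowest to highest library and the 5p arm a 3.67-fold range. On the log2(CPM + 1) scale the SD over 9 libraries was 0.88 for the 3p arm, rank 116 of 245 tested miRNAs from the least variable, and 0.57 for the 5p arm, rank 25.

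Between SS and NS, neither arm differed beyond the spread between steers. The SS libraries averaged 973 ± 499 CPM of bta-miR-126-3p (SD, n = 5), against 1636 ± 1300 CPM for NS (SD, n = 4). For bta-miR-126-5p the averages were 4700 ± 1600 CPM for SS (SD, n = 5) against 5806 ± 3169 CPM for NS (SD, n = 4). The medians were closer than the means, at 923 CPM in SS and 1061 CPM in NS for the 3p arm, while for the 5p arm SS had the higher median, 4827 CPM against 4398 CPM. On the log2(CPM + 1) scale the difference, SS minus NS, was -0.65 (SE 0.56) for the 3p arm (limma adjusted p = 0.503) and -0.24 (SE 0.44) for the 5p arm (limma adjusted p = 0.722). In bulk tissue, fewer cells of a type and less of the RNA per cell cannot be told apart.

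The thresholds of the study, FDR under 0.1 together with a log2 change beyond 1 either way, were met in limma by 0 of 245 miRNAs (0.0%), and 40 (16.3%) had an unadjusted p under 0.05. Neither arm was among the 40. The groups overlapped for both arms, while 6.53% of the 245 miRNAs did not overlap. Both arms had a lower mean in SS on this scale, as did 88.2% of all miRNAs tested. Relative to the median miRNA, which was at -0.70, the 3p arm was at 0.046 and the 5p arm at 0.45.

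The NS means rested on 1 animal. Without NS steer 242, the other 3 NS libraries were at 988 ± 139 CPM (SD, n = 3) for the 3p arm and 4236 ± 529 CPM (SD, n = 3) for the 5p arm, both within the range of SS. The log2 difference was then -0.18 for the 3p arm (limma adjusted p = 0.863), and it turned to 0.086 for the 5p arm (limma adjusted p = 0.919). NS steer 242 was the library with the second smallest total and the highest erythrocyte, leukocyte and mesenchymal miRNAs.

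The direction also turned with the scaling. With median-of-ratios factors the log2 difference was 0.054 for the 3p arm (limma adjusted p = 0.961) and 0.46 for the 5p arm (limma adjusted p = 0.669). On that scale the 5p arm had rescaled CPM of 2859, 4311, 4286 and 5050 in NS steers 108, 152, 165 and 242. In SS steers 274, 287, 294, 299 and 310 these were 8909, 4115, 5183, 4338 and 6417. SS steer 274, not NS steer 242, was then the highest for both arms, with a rescaled CPM of 2161 for the 3p arm against 1718 in NS steer 242. As deposited, SS steer 274 was also the library lowest in miRNAs of intestinal epithelium. Their mean log2(CPM + 1) was 6.88 there, against 9.08 to 12.6 in the other libraries. The part of this make-up was not tested. SS steers 299 and 310, the lowest of all as deposited, moved into the range of the others for the 5p arm, and 3 SS libraries lay above every NS library. In the fits that scaled by other factors the 3p arm was at -0.40 to 0.10 and the 5p arm at 0.0089 to 0.49, and none of these differences passed.

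**Figure D2:**
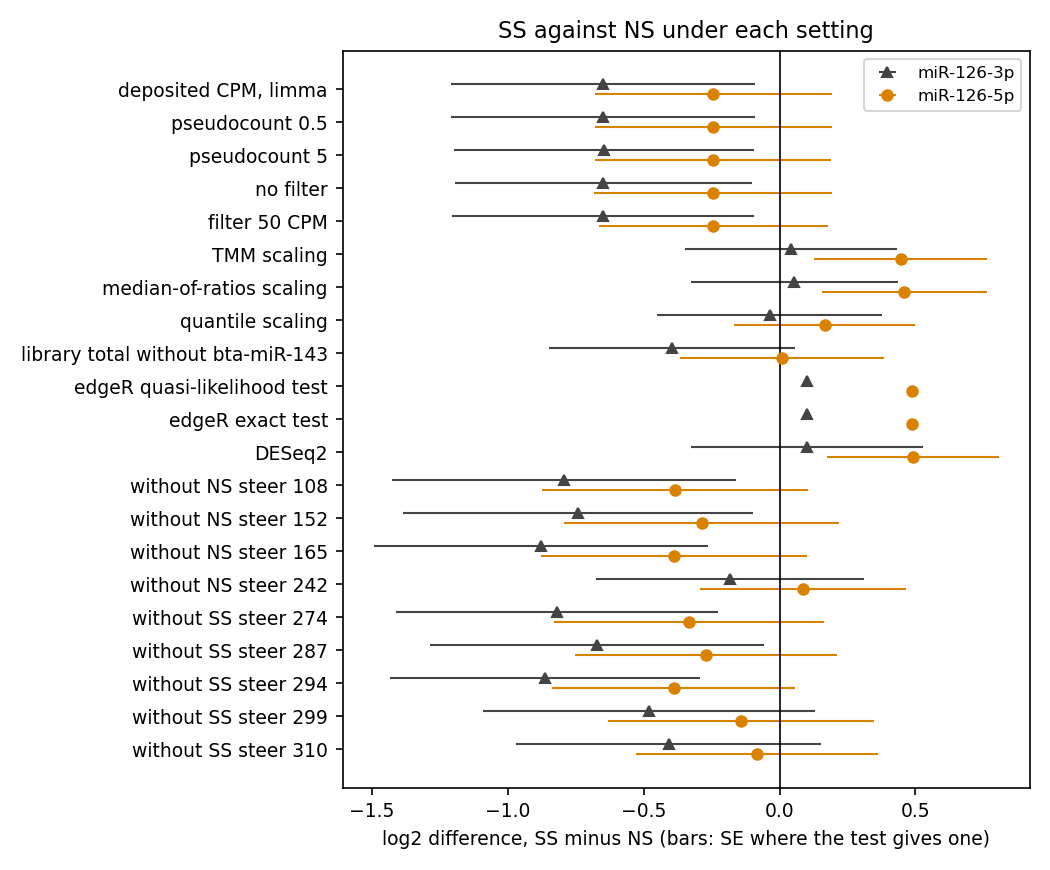
Log2 difference, SS minus NS, of bta-miR-126-3p (triangles) and bta-miR-126-5p (circles) under the deposited scaling in limma and each alternative, with the standard error as bars where the test gives one. The values run from -0.88 to 0.10 for the 3p arm and from -0.39 to 0.49 for the 5p arm. The 5p arm lies to the right of the 3p arm in every setting, a gap that a scaling factor per library hardly affects.

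The ratio of the arms does not depend on the scaling of the library. The 5p arm exceeded the 3p arm 3.93-fold in NS steer 108, 4.34-fold in NS steer 152, 4.65-fold in NS steer 165 and 2.94-fold in NS steer 242. In SS the ratio was 4.12 in steer 274, 5.23 in steer 287, 4.28 in steer 294, 6.22 in steer 299 and 6.47 in steer 310. As deposited, the ratio was highest in the 2 libraries with the lowest miR-126 and lowest in NS steer 242, the library with the most. The levels in this comparison do depend on the scaling. With median-of-ratios factors SS steer 274 had the most of both arms. SS steer 310 then had a rescaled CPM of 6417 for the 5p arm, above every NS library. In the ratio, SS 287, 299 and 310 lay above every NS library. As a share of the reads of both arms, the 5p arm took 74.6% (73.8% to 75.4%, 95% Clopper-Pearson) in NS steer 242 and 86.6% (86.1% to 87.1%) in SS steer 310. These intervals cover counting error only, since the reads carry no molecular identifiers.

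As log2 of the ratio, with 1 CPM added to each arm, SS had 2.37 ± 0.30 (SD, n = 5) and NS 1.96 ± 0.29 (SD, n = 4). The difference of 0.40 did not pass a two-sided exact permutation test (p = 0.0952, where 0.00794 is the smallest p that 5 against 4 libraries can give). Leaving out each library in turn gave differences of 0.27 to 0.49, lowest without NS steer 242, with an exact permutation p of 0.0714 to 0.214. Several measures had an r above 0.6 in size with the ratio, and none of these relations passed. Across the 9 libraries the log2 ratio and the log2 library total had a Pearson's r of 0.746 (exact permutation p = 0.0211, adjusted p = 0.0633) and a Spearman's rho of 0.733 (exact permutation p = 0.0311, adjusted p = 0.187). Without the 2 libraries farthest from the median total, NS 108 and SS 310, r was 0.684. Of the cell type lists described below, the mesenchymal one had an r of -0.742 with the log2 ratio (exact permutation p = 0.0232, adjusted p = 0.0633), with a rho of -0.667 (exact permutation p = 0.0589, adjusted p = 0.187). The erythrocyte list had an r of -0.642 (exact permutation p = 0.0717, adjusted p = 0.114), with a rho of -0.400 (exact permutation p = 0.291, adjusted p = 0.369). The leukocyte list had an r of -0.631 (exact permutation p = 0.0637, adjusted p = 0.114), with a rho of -0.583 (exact permutation p = 0.108, adjusted p = 0.187). Without the 2 libraries farthest from each list's median r was -0.129, -0.543 and -0.018, and with median-of-ratios factors -0.203, -0.258 and -0.508. For smooth muscle r was 0.364 (exact permutation p = 0.335, adjusted p = 0.398) and for epithelium 0.075 (exact permutation p = 0.843, adjusted p = 0.843). Without SS steer 274, the relations of the ratio with depth (r = 0.880, adjusted p = 0.0141), mesenchyme (r = -0.891, adjusted p = 0.0141) and leukocytes (r = -0.813, adjusted p = 0.0351) passed in the exact permutation test. The p-values of such relations are adjusted over the 19 relations computed. Each group holds fewer than 6 libraries, too few for a value within groups, and the part of depth or of these cell types in the ratio was not tested.

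**Figure D3:**
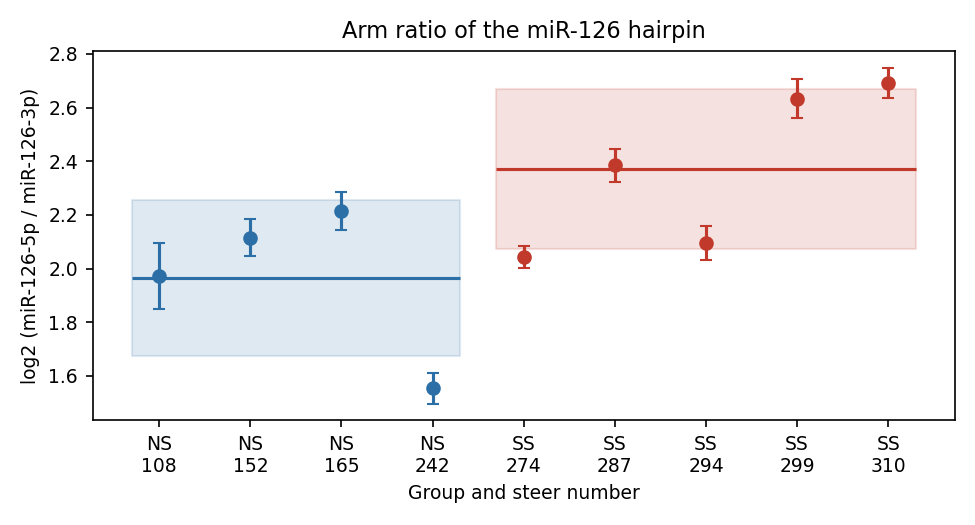
Log2 ratio of bta-miR-126-5p over bta-miR-126-3p in each NS (blue) and SS (red) library, with 95% intervals from counting error as bars, the group mean as a line and 1 SD as a band. The group bands overlap around means of 1.96 in NS and 2.37 in SS, and the spread between steers is wider than the counting error.

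Of the hairpins named with both a 5p and a 3p row, 18 had both arms above the filter. The SD of the miR-126 ratio, with counting error included, was among the smaller ones. Its SD over 9 libraries was 0.35 on the log2 scale, against a median of 0.50 over the 18 hairpins. The SD was smaller for bta-miR-142 (0.24), the hairpin of a leukocyte miRNA, and by a narrow margin for bta-miR-22. It was largest for bta-miR-99a (1.53), bta-miR-193a (1.17) and bta-miR-423 (1.10). Counting error alone would give an SD of 0.04 for miR-126 and, for the median hairpin, 0.31, because many minor arms rest on few reads. The low SD of bta-miR-22 lay close to its counting error of 0.32. The SD was also near counting error for bta-miR-6119 (0.42 against 0.45) and bta-miR-369 (0.49 against 0.49). The same held for bta-miR-331 (0.45 against 0.43) and, less closely, bta-miR-17 (0.42 against 0.35). The spread of miR-126 was nearly all beyond counting error, so its place by SD does not rank the hairpins by spread between steers.

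The 5p arm was higher in every library for 9 of the 18 hairpins, miR-126 included, and the 3p arm for 7. Between groups, the ratio was higher in SS for 11 of the 18 hairpins (61.1%), and the groups did not overlap for 2 of them (11.1%), bta-miR-99a and bta-miR-199a. The difference of 0.40 for miR-126 was the 6th highest of the 18, where the median was 0.09 and the range -0.62 to 2.44.

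**Figure D4:**
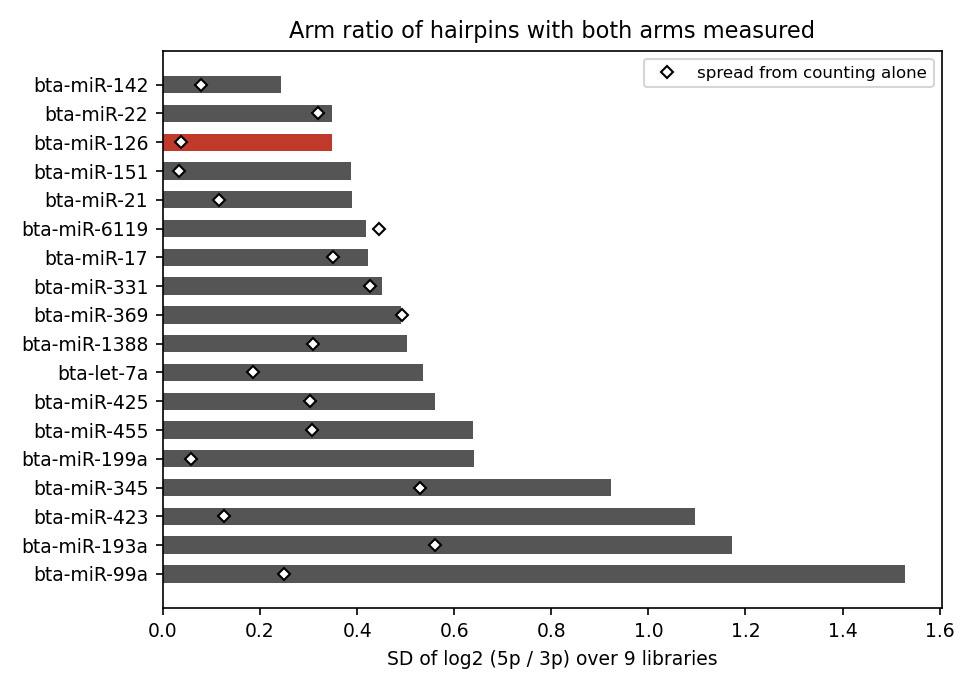
SD of the log2 ratio of 5p over 3p across the 9 libraries for the 18 hairpins with both arms above the filter (bars, miR-126 in red), with the spread that counting error alone would give (diamonds). The bar of miR-126 is the third shortest at 0.35, with counting error of 0.04.

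The arms rose and fell together across the libraries. Their log2(CPM + 1) values had a Pearson's r of 0.979 (exact permutation p = 1.4e-05, adjusted p = 0.00026) and a Spearman's rho of 0.983 (exact permutation p = 5e-05, adjusted p = 0.00094). Without NS 242 and SS 310, the 2 libraries farthest from the median of the 3p arm, r was 0.922. Both arms share the scaling of their library, and its part in their likeness was not tested. The median r with all other tested miRNAs was 0.604 for the 3p arm and 0.556 for the 5p arm. With median-of-ratios factors those medians were 0.0064 and 0.014, and the r between the arms was 0.779 (exact permutation p = 0.0126), which did not pass once adjusted (p = 0.133). Such factors bring the median miRNA of each library to a common level, so that low medians of r follow largely from the method.

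**Figure D5:**
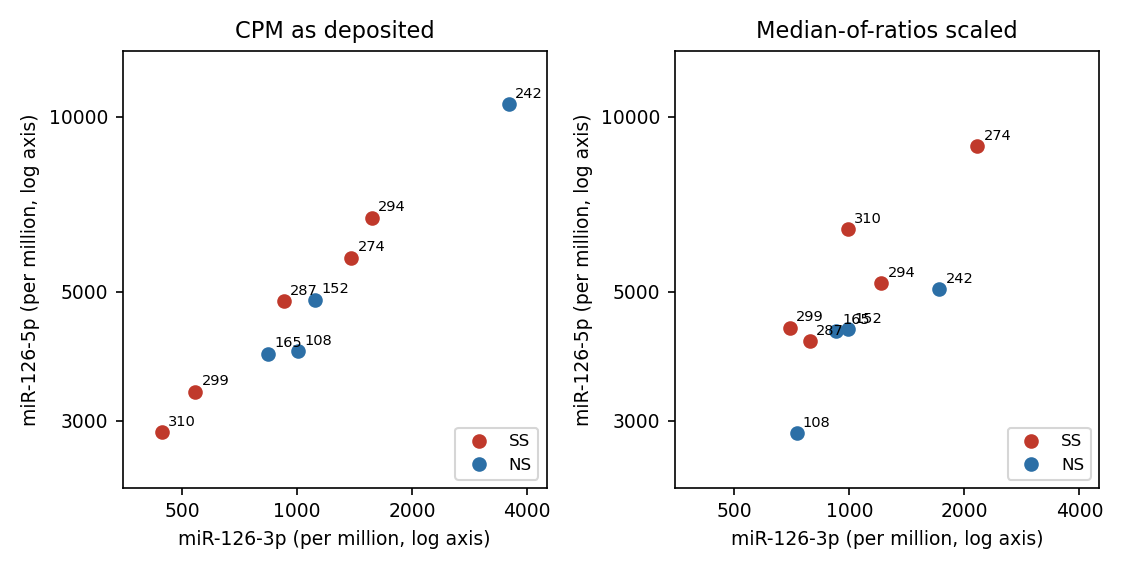
Level of bta-miR-126-5p against bta-miR-126-3p, in CPM on log axes, in NS (blue) and SS (red) libraries marked by steer number, as deposited (left) and with median-of-ratios factors (right). The points follow a line as deposited (r = 0.979) and scatter more on the right (r = 0.779), where SS 274 takes the highest place from NS 242.

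Among the 245 tested miRNAs, each arm was the one most like the other over the 9 libraries as deposited. After it, the 3p arm was most like bta-miR-22-5p (r = 0.939), bta-miR-29c (0.917), bta-miR-30e-5p (0.915) and bta-miR-450b (0.912). The 5p arm was most like bta-miR-218 (0.914), bta-miR-22-5p (0.905), bta-miR-2284w (0.905) and bta-miR-450b (0.904). All of these were highest in NS steer 242. The miRNAs least like both arms were bta-miR-490 and bta-miR-143, both of smooth muscle, and bta-miR-379. For the 3p arm these had an r of -0.713, -0.626 and -0.616, and for the 5p arm -0.781, -0.687 and -0.592. These likenesses describe 9 libraries that share their scaling. With median-of-ratios factors, 3 of the 5 names remained for the 3p arm and 1 of the 5 for the 5p arm, and none of the least like ones. The other arm then held place 3 for the 3p arm and place 6 for the 5p arm.

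The levels of the arms were set beside those of other cell types. The erythrocyte list, led by bta-miR-486 of red blood cells, had a Pearson's r of 0.759 with the 3p arm (exact permutation p = 0.0292, adjusted p = 0.0633) and 0.789 with the 5p arm (exact permutation p = 0.0189, adjusted p = 0.0633). Its 3 members summed to 278 to 661 CPM in SS and 269 to 3034 CPM in NS, 2 of 3 were above the filter, and none was at 0 in all libraries. Spearman's rho was 0.583 for the 3p arm (exact permutation p = 0.108, adjusted p = 0.187) and 0.600 for the 5p arm (exact permutation p = 0.0968, adjusted p = 0.187). Without NS 242 and SS 299, the farthest from the median, r was 0.790 and 0.831. With median-of-ratios factors r was 0.589 and 0.520, and neither passed. Without NS steer 242 alone it was 0.269 for the 3p arm and 0.390 for the 5p arm. Without SS steer 299 alone r was 0.888 for the 3p arm (adjusted p = 0.0154) and 0.886 for the 5p arm (adjusted p = 0.0118), which passed in the exact permutation test.

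The leukocyte list, led by bta-miR-142-5p, had an r of 0.712 with the 3p arm (exact permutation p = 0.0300, adjusted p = 0.0633) and 0.720 with the 5p arm (exact permutation p = 0.0278, adjusted p = 0.0633), with a rho of 0.683 and 0.700 (exact permutation p = 0.0503 and 0.0433, both 0.187 adjusted). The mesenchymal list, led by bta-miR-199a-3p, had an r of 0.760 (exact permutation p = 0.0214, adjusted p = 0.0633) and 0.727 (exact permutation p = 0.0289, adjusted p = 0.0633), with a rho of 0.633 and 0.600 (exact permutation p = 0.0760 and 0.0968, both 0.187 adjusted). Without NS 242 and SS 310, the libraries farthest from the median, r was 0.179 and 0.251 for leukocytes and 0.051 and -0.012 for mesenchyme. Without SS steer 274 alone, r was 0.913 and 0.920 for leukocytes (adjusted p = 0.0141 and 0.0125) and 0.916 and 0.878 for mesenchyme (adjusted p = 0.0141 for both), which passed in the exact permutation test. With SS 274, NS 242 and SS 310 all left out, it was 0.816 and 0.898 for leukocytes and 0.567 and 0.435 for mesenchyme. With median-of-ratios factors it was -0.027 and -0.421 for leukocytes and 0.110 and -0.021 for mesenchyme. The 8 leukocyte miRNAs summed to 691 to 20359 CPM in SS and 3800 to 44745 CPM in NS, and the 4 mesenchymal ones to 1396 to 3902 CPM in SS and 2982 to 11560 CPM in NS, with none at 0 in all libraries. Their part in the level of miR-126 was not tested.

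The smooth muscle list, led by bta-miR-143, had an r of -0.533 for the 3p arm (exact permutation p = 0.139, adjusted p = 0.189) and -0.607 for the 5p arm (exact permutation p = 0.0832, adjusted p = 0.122). Its rho was -0.467 and -0.533 (exact permutation p = 0.213 and 0.148, adjusted p = 0.288 and 0.234). Without NS 242 and SS 294, r was 0.052 and -0.0090. Without SS steer 274 alone it was -0.729 (exact permutation, adjusted p = 0.0699) and -0.814 (exact permutation, adjusted p = 0.0351), of which the second passed, and with all 3 of these libraries left out it was -0.616 and -0.853. With median-of-ratios factors it was -0.070 and 0.373. Its 6 members summed to 222069 to 736839 CPM in SS and 306219 to 627891 CPM in NS. For the intestinal epithelium list, led by bta-miR-192, r as deposited was -0.088 with the 3p arm (exact permutation p = 0.811, adjusted p = 0.843) and -0.091 with the 5p arm (exact permutation p = 0.811, adjusted p = 0.843), with a rho of 0.10 and 0.15 (exact permutation p = 0.810 and 0.708, adjusted p = 0.855 and 0.831). Without SS 274 and SS 310, the farthest from the median, r was -0.415 and -0.384. With median-of-ratios factors it was -0.802 for the 3p arm (exact permutation p = 0.0161, adjusted p = 0.133) and -0.686 for the 5p arm (exact permutation p = 0.0399, adjusted p = 0.173), the largest in size of the 5 lists on that scale, and neither passed. There, without the farthest libraries NS 242 and SS 274, r was 0.181 and -0.345. The 9 epithelial members summed to 4276 to 401685 CPM in SS and 25250 to 134093 CPM in NS. Of the 19 relations, only that between the arms passed at an adjusted p under 0.05. This count rose to 9 without SS steer 274 and to 3 without SS steer 299, and it was 0 with median-of-ratios factors.

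Other miRNAs described in endothelial cells or vessel growth were set beside miR-126. Of a list of 34, 31 were above the filter, and limma called none of them (0 of 31, against 0.0% of all miRNAs). DESeq2 called 9 of all 245 miRNAs (3.67%), 6 of them higher in SS (2.45%), and of the 31 it called 2, bta-miR-100 and bta-miR-24-3p, both higher and both named after their values were seen. The means of 27 were lower in SS and of 4 higher, close to the 88.2% lower of all miRNAs tested. The median was -0.71, or -0.01 relative to the median miRNA, so that both arms of miR-126 lay above the median of this list. With TMM, median-of-ratios or quantile factors 17 of the 31 were lower. At an unadjusted p under 0.05 in limma stood 5 of the 31, beside 16.3% of all miRNAs.

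The 4 most abundant members of the list stood well above miR-126 and did not pass either. The HOX cluster miRNA bta-miR-10b had 47645 CPM in SS and 57330 CPM in NS, which is -0.44 on the log2 scale (SE 0.58, limma adjusted p = 0.624). Its relative bta-miR-10a had 27459 CPM and 22240 CPM, or 0.18 (SE 0.49, limma adjusted p = 0.817). For bta-miR-27b the means were 28859 CPM and 36406 CPM, or -0.34 (SE 0.32, limma adjusted p = 0.534). For bta-miR-21-5p they were 15629 CPM and 21337 CPM, or -0.82 (SE 0.64, limma adjusted p = 0.457).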

How the data were processed

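Small RNA of rectal tissue was sequenced in 9 libraries, 1 per steer (5 SS, 4 NS), and groups were taken from the sample titles. The authors made TruSeq small RNA libraries, assigned single reads to miRBase sequences with the sRNA toolbox (Bowtie is named in the submitters' notes; versions not given in the sources used here) and scaled the reads per miRNA to the library. The deposited values are recorded as a signal, because the columns sum to 2.49% to 8.94% more than true CPM would. All values (100%) were whole reads times 1 step per library (tolerance 1e-06 reads), so that reads were recovered. No column was left out (0).

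A miRNA was tested at 5 CPM or more in at least 4 libraries (245 of 515). SS and NS were compared on log2(CPM + 1), which understates the change of low miRNAs, with limma 3.58.1 under R 4.3.3, using a trended prior and Benjamini-Hochberg adjustment over the 245. Alternatives were other pseudocounts, filters and scalings, leaving out each library, and edgeR 4.0.16 and DESeq2 1.42.0 on the recovered reads. The authors used edgeR. Because the values are deposited in scaled form, limma on that scale was chosen for the main result. The recovered reads did allow count tests, which scale the libraries by other factors and gave the opposite sign for both arms. Limma gave that opposite sign as well with TMM or median-of-ratios factors. Arm ratios were tested by exact permutation over 126 splits. Relations across libraries used Pearson's r and Spearman's rho with exact permutation of pairings. Cell type lists were summarised as the mean log2(CPM + 1) of their tested members. The miRNAs named were both arms, the 5 most and 3 least like each, the 3 hairpins with the steadiest and the least steady ratio, the 4 most abundant of the vessel growth list and the most abundant of each cell type list. In 10 simulations of SS against NS with 50 of 245 miRNAs changed, limma recovered 81.6% of the 4-fold changes and 97.2% of the 8-fold changes. On average 3.8 unchanged miRNAs were called as well. The simulated libraries shared 1 make-up, with a spread estimated after TMM scaling. They lacked the differences in make-up of the real libraries, where recovery on the deposited scale may be lower. The miRNAs and lists were chosen with earlier results of these data known.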

Additional observations from a re-analysis of the deposited data

Results flagged for a closer look

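Libraries that stood apart within SS or NS were looked for in 42 groups of values. The gap to the next library, as a share of the range of the group, was compared with a cut-off. For normally distributed values, chance gives about 1 in 20. In 14 cases the highest library stood apart, in 11 of them NS steer 242. Many of these miRNAs were named for their likeness to miR-126, so that the cases are not separate. In NS steer 242, bta-miR-126-3p was 3578 CPM where the other NS steers had 842 to 1118 CPM, bta-miR-126-5p 10516 CPM against 3914 to 4847 CPM, and the sum of both arms 14094 CPM against 4756 to 5965 CPM. Of the miRNAs most like the arms, its bta-miR-22-5p was 29.0 CPM against 10.8 to 12.3 CPM, bta-miR-30e-5p 8199 CPM against 3442 to 4237 CPM, bta-miR-450b 233 CPM against 47.9 to 66.0 CPM, bta-miR-218 127 CPM against 16.9 to 32.7 CPM and bta-miR-2284w 56.9 CPM against 4.32 to 12.9 CPM. Of the cell type miRNAs, bta-miR-142-5p reached 32085 CPM against 2377 to 3862 CPM, bta-miR-486 2391 CPM against 244 to 464 CPM and bta-miR-199a-3p 9080 CPM against 2267 to 3230 CPM.

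In SS, steer 294 had 117 CPM of bta-miR-450b against 39.4 to 57.2 CPM and 35.0 CPM of bta-miR-2284w against 4.12 to 11.1 CPM. SS steer 287 had 118941 CPM of bta-miR-10b against 15679 to 44474 CPM in the other SS libraries.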

How the results depend on the processing

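The difference between SS and NS passed under none of the 20 alternatives for either arm (adjusted p 0.295 to 0.976 for the 3p arm and 0.510 to 0.992 for the 5p arm, in limma, edgeR or DESeq2), but its sign turned. For bta-miR-126-3p it was 0.041 with TMM, 0.054 with median-of-ratios factors, 0.10 in both edgeR tests and 0.10 in DESeq2. For bta-miR-126-5p it was 0.45 with TMM, 0.46 with median-of-ratios, 0.17 with quantile scaling, 0.0089 with bta-miR-143 left out of the total, and 0.49 in both edgeR tests and in DESeq2 (0.487 and 0.489). Leaving out single libraries gave -0.88 to -0.18 for the 3p arm and -0.39 to 0.086 for the 5p arm. Under the same alternatives miRNAs called numbered 0, except 1 with no filter, 1 in edgeR's exact test and 9 in DESeq2, which held neither arm. The difference in the arm ratio kept its sign and did not pass in any of 11 alternatives. Among the 6 hairpins above 50 CPM in both arms, 4 varied more than miR-126. The r between the arms was 0.779 with median-of-ratios factors and 0.951 to 0.991 without single libraries. With median-of-ratios factors the r with leukocytes turned to -0.027 and -0.42, that of the 5p arm with mesenchyme to -0.021 and with smooth muscle to 0.37. Without single libraries the r with epithelium lay between -0.324 and 0.159 for the 3p arm, -0.306 and 0.154 for the 5p arm and -0.139 and 0.313 for the arm ratio, turning sign without NS steer 242 and without SS steer 274. The relations that passed were 0 with these factors and 1 to 9 without single libraries. The causes were not tested.

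The paper describes the NS steers as pen-mates of the super-shedders, but the sample labels give no pen. No steer number occurs in both groups either, so that no paired analysis was possible. With 1 library per steer, the standard errors of 0.56 and 0.44 were near or above the size of the differences.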
